A study of Mus musculus with 21 samples.

Results

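The 34 genes described here carry glucose breakdown and the response to low oxygen: enzymes of glycolysis, transporters of glucose and lactate, regulators of pyruvate use, the oxygen-sensing machinery and genes it switches on. They were chosen by name. Of the 34 genes, 33 had a probe set with a single gene symbol, and the probe set with the highest mean signal stood for each gene. Gpi1 had no such probe set and was not analysed here. The filter on low signal, a value of at least 13.3 (the table's median) on 3 or more arrays, was passed by 31 members, among 12143 genes tested out of 18193 with a probe set. The muscle phosphoglycerate mutase Pgam2, with signals of 0.380 to 2.62, and the neuronal enolase Eno2, with signals of 1.32 to 12.8, did not pass it.

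Presomitic mesoderm (PSM) is unsegmented tissue from which the somites of the vertebrate body are cut off at the front while cells are added at the tail end. The samples were total RNA of PSM from CD-1 mouse embryos, given as E8.5 in the labels and as 9.0 days after coitus in the dissection protocol, with no allele or agent named other than a short pancreatin digestion. Each PSM was divided into 7 pieces, parts 1 to 7, with 3 arrays per part and 21 arrays in all. The 3 replicate numbers recur in every part. By the series' design text 1 embryo gave both a left and a right PSM and a further set was taken from a different embryo. Which replicate numbers share an embryo is not stated, so the arrays are not all separate animals and p-values measure the spread among these arrays only.

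Glycolysis turns glucose into pyruvate and, where pyruvate is reduced to lactate and exported, supplies energy and carbon without oxygen. In the embryo's tail end this pathway is known to be highly active and to decline as PSM cells mature. When oxygen is scarce, prolyl hydroxylases stop marking the factor HIF-1 alpha for breakdown, and HIF binds short DNA elements to raise the transcription of glycolytic genes, of glucose transporters and of the hydroxylases themselves.

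The labels do not say which part lies at which end of the tissue, so positions are given by part number. Among genes known for the 2 ends, the immature PSM gene Tbx6 had a part mean signal of 534 in part 1 and 29.7 in part 7, and the somite gene Meox1 had 25.5 in part 1 and 2718 in part 7. All 6 PSM markers fell with the part number, Msgn1 included, and all 6 somite markers tested rose, Tcf15 included. Array mean signals lay between 151 and 154. The log2 ratio of the 3' to the 5' control probe set of Gapdh, a measure of RNA length, ranged from 2.21 to 3.64 in part 1 and from 3.55 to 3.90 in part 7. It also differed by replicate number. Replicate 3 had the lowest ratio in parts 1 to 5 (2.21, 2.85, 3.30, 2.80 and 2.94), but not in parts 6 and 7. Markers of blood were present in every piece: Hbb-y, an embryonic globin, had signals of 4777 to 6888, and the summed signal of the 9 blood genes measured was 10938 to 19804 in part 1 and 6603 to 12545 in part 7, with 6 of 8 tested falling. The endothelial sum ranged from 67.1 to 589 in part 1 and from 62.0 to 295 in part 7, with 1 of 9 falling and with Pecam1 at 0.857 to 13.6 and Cdh5 at 0.688 to 48.9 over all arrays. The gut endoderm sum ranged from 259 to 485 in part 1 and from 84.5 to 263 in part 7, with 2 of 8 falling and with Foxa2 at 0.674 to 21.8. The neural tube sum ranged from 1351 to 1742 in part 1, from 799 to 1094 in part 4 and from 1254 to 1326 in part 7. Of its 7 tested genes, Ncam1 (part means 534 in part 1 and 1135 in part 7) and Olig2 (1.84 and 5.63) rose and Fabp7 (982 and 93.5) fell, 3 genes named after their values were seen, and Sox1 lay between 0.157 and 13.9. The notochord gene Shh lay between 10.7 and 46.6. The part of these cell types and of RNA length in the results was not tested.

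Along the 7 parts the members split: 4 rose, 4 fell and 23 did not pass the test of a straight line on the part number (limma, adjusted p under 0.05). The risers were the aldolase Aldoc, the stress gene Ndrg1, the lactate exporter Slc16a3 and the oxygen sensor Egln1. The fallers were the glucose transporter Slc2a3, the oxygen sensor Egln3, the HIF subunit Hif1a and the lactate dehydrogenase Ldha. The 8 called members are 25.8% of the 31 tested, against 19.2% of all genes tested (8.09% rising and 11.1% falling). The same shares of all genes stand beside the counts by role below, which come from 4 to 9 tested members each. The median slope of the members was -0.0047 per part on the log2(signal + 16) scale, against -0.0013 for all genes, and their median absolute slope was 0.045 against 0.034. The 23 other slopes lay between -0.17 and 0.12. All 8 called slopes had the same sign in each of the 3 replicate numbers. The part mean was highest in part 1 for 13 of the 31 members, and in parts 2 to 7 for 3, 1, 2, 1, 5 and 6 members. The same count was not made over all genes, so it does not show a preference of the members for part 1.

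**Figure D1:**
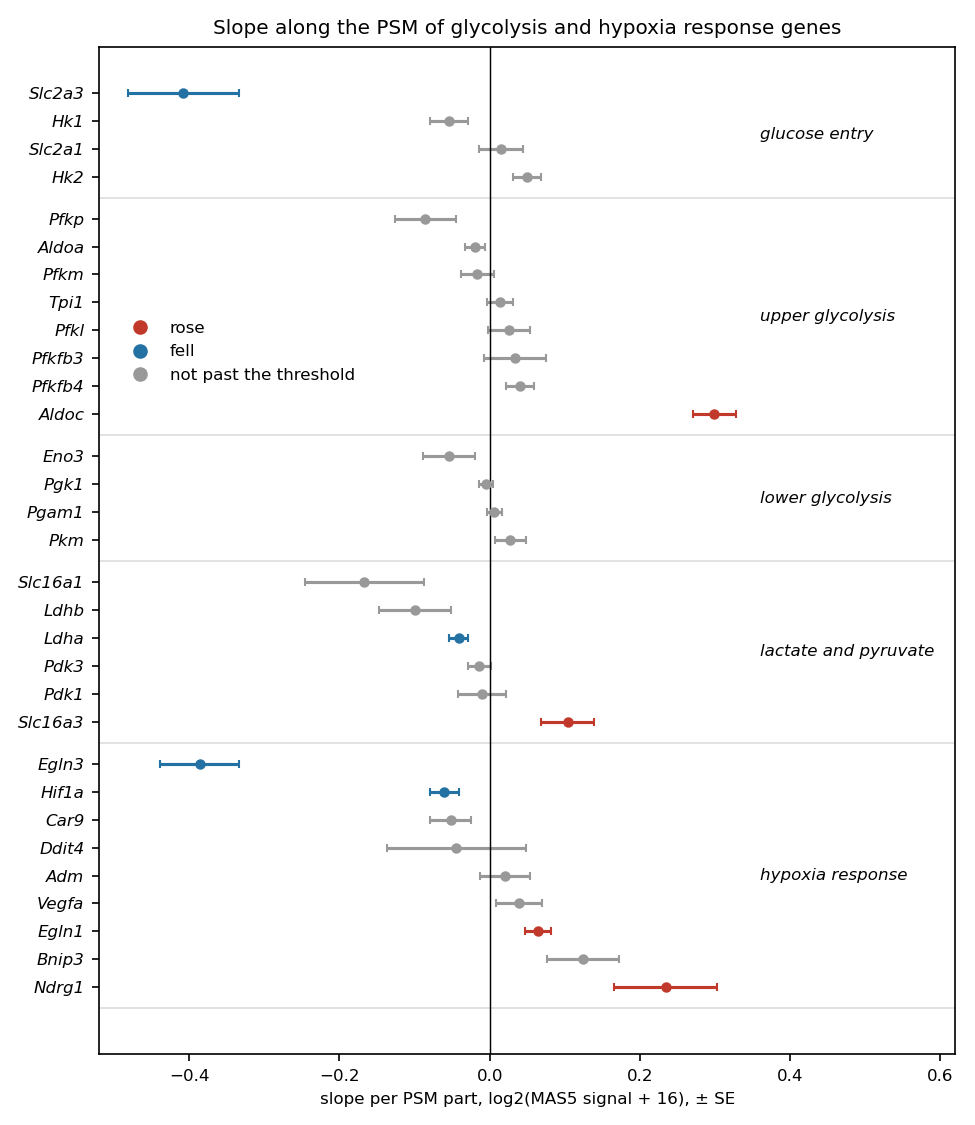
The slope of each of the 31 tested members per PSM part, on the log2(MAS5 signal + 16) scale with its standard error, grouped by role. Slc2a3 (-0.41) and Egln3 (-0.39) lie farthest to the left and Aldoc (0.30) and Ndrg1 (0.23) farthest to the right, while most other members lie near 0.

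**Figure D2:**
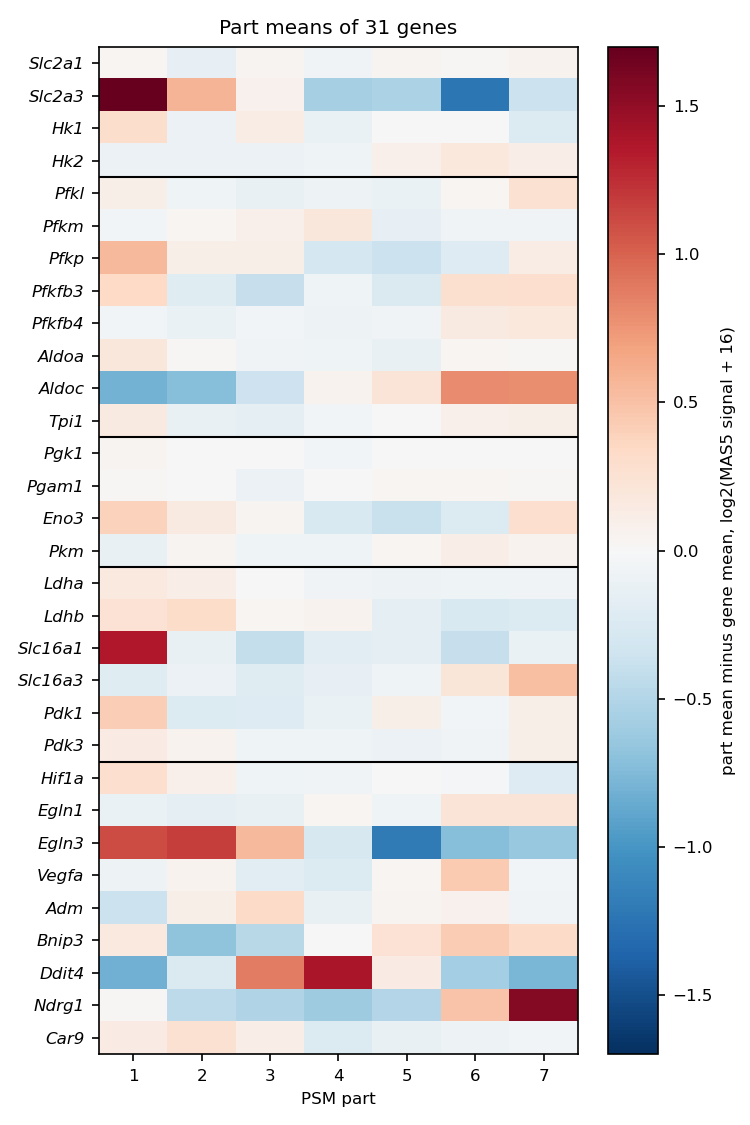
The mean of 3 arrays in each part for the tested members, as the difference from the gene's own mean over the parts on the log2(MAS5 signal + 16) scale, with colour for the sign and size of the difference. Part 1 holds the highest mean of 13 members, a count not made over all genes, and Ddit4 reaches its high values in parts 3 and 4.

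HIF binds DNA with the core letters ACGTG or GCGTG, so the 250 bases before each start site were searched for these letters on both strands. On the other strand they read CACGT and CACGC, and overlapping matches, such as CACGTG, which holds ACGTG on both strands, were counted as 1 place. RefSeq start sites on build GRCm38.p6 were found for 32 of the 34 members, with 44 windows, and none was found for Slc2a3 or Ndrg1. ACGTG stood in 22 of the 44 windows (50.0%), against 16.6% of all 32851 windows of that length. Either core stood in 34 of the 44 windows (77.3%), against 38.6% of all. The members were chosen by name, in part as genes of the response to low oxygen, so an excess of HIF cores is no independent result. The windows of all genes were not limited to genes tested here and not matched for base content. Such a match is a run of letters and does not show a bound site, and windows of 1 gene can overlap. The 5 windows printed here belong to members that are called below, so that their cores can be set beside the signals. All 5 hold ACGTG, and they do not stand for all called members. The windows of Aldoc and Eno3 hold no ACGTG. Their only cores are of the GCGTG kind, 50 and 39 bases before the Aldoc starts and 130 before the Eno3 start. A further Ldha window, not printed, has a single core of that kind at 59 bases. Capitals mark the cores, and each sequence runs 5' to 3' on the gene's strand up to the base before the start.
Egln3, chr12:54203875-54204124, minus strand: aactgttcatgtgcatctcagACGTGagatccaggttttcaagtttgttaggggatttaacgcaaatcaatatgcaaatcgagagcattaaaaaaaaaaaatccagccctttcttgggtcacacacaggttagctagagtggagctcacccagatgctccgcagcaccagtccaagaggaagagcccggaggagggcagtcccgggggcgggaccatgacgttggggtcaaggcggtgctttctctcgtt
Egln1, chr8:124949255-124949504, minus strand: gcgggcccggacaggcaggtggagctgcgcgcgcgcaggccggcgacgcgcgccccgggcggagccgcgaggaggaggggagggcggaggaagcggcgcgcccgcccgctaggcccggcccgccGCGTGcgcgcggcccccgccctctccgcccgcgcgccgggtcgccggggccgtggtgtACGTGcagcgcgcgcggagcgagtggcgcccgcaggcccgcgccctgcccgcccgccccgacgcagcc
Ldha, chr7:46845554-46845803, plus strand: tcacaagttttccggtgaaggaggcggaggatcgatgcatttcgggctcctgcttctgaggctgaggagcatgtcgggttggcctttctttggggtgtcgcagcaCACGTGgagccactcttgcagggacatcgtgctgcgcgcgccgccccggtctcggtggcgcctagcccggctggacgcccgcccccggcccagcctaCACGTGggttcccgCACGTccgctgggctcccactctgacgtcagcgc
Slc16a3, chr11:120948817-120949066, plus strand: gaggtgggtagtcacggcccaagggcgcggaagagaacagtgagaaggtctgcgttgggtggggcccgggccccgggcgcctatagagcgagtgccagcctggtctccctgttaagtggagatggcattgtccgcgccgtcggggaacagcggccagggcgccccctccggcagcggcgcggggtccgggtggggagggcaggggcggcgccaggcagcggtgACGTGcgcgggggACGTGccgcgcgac
Ddit4, chr10:59951771-59952020, minus strand: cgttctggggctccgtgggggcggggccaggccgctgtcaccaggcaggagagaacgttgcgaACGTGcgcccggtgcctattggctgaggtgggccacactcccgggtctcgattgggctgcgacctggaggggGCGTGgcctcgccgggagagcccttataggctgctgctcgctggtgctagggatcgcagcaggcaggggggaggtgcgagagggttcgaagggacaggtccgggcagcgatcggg
In the printed windows, Egln3 has a single core 229 bases before its start. Egln1 has cores at 126 and 68 bases, Ddit4 at 187 and 115, Slc16a3 at 27 and 14, and Ldha at 145, 48 and 34. In these windows, picked with cores, the members fell, rose or were highest in the middle. Of the 32 members with a start site, 28 (87.5%) had either core in a window, called or not. That share was not computed over all genes, so cores do not set the called members apart.

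Glucose enters cells through facilitative transporters and is trapped by hexokinases, and among these 4 members only Slc2a3, which encodes the high-affinity transporter GLUT3, passed the slope test. Its signals were 1425, 3649 and 4331 in part 1, 910, 889 and 1326 in part 2, 672, 558 and 978 in part 3, 401, 452 and 512 in part 4, 295, 1010 and 332 in part 5, 344, 268 and 242 in part 6 and 634, 351 and 635 in part 7. All 3 arrays of part 1 lay above all 18 others, and the spread within part 1 was wide. The mean was 3135 ± 1520 (SD, n = 3) in part 1 and 540 ± 164 in part 7, a difference of -2.40 ± 0.40 (SE) on the log2 scale, or 5.28-fold lower in part 7 (limma adjusted p = 0.000346). Folds here and below come from the mean log2 values of signal + 16 and differ from the ratio of the mean signals, most for dim genes; that ratio was 5.80 for Slc2a3. The slope was -0.41 ± 0.07 per part (adjusted p = 0.000244). A second probe set of Slc2a3 fell with a slope of -0.48 ± 0.09 (adjusted p = 0.000382 in a fit over all probe sets). Affymetrix marks this probe set, like the first, as one whose probes can match other transcripts. The remaining Slc2a3 probe sets, which lack that mark, had mean signals of 1.66 and 2.31 and were below the filter. Blood sums in replicates 1, 2 and 3 of part 1 were 19804, 10938 and 13982. The endothelial sums were 319, 67.1 and 589, and the gut endoderm sums 259, 463 and 485. The part of these cells in the Slc2a3 signal was not tested. In bulk samples, fewer cells of a type and less RNA per cell cannot be told apart.

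Slc2a1, which encodes the widely used transporter GLUT1, ranged from 1073 to 2048 with a slope of 0.02 ± 0.03 (adjusted p = 0.774). Hexokinase 2, Hk2, had part means from 905 to 1098 and a slope of 0.05 ± 0.02 that missed the threshold (adjusted p = 0.0602, and 0.0121 with a term for the replicate number). Hexokinase 1, Hk1, gave 85.3, 107 and 56.7 in part 1 and 53.7, 52.1 and 47.5 in part 7, groups that did not overlap but whose difference of -0.53 ± 0.19 missed the threshold (adjusted p = 0.0660, and 0.0302 with the replicate number).

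In upper glycolysis, from phosphofructokinase to triose phosphate, 1 of 8 tested members rose and none fell. Aldoc encodes aldolase C, the aldolase best known from brain. Its signals were 38.4, 45.5 and 50.7 in part 1, 50.5, 37.1 and 59.0 in part 2, 80.6, 49.7 and 74.3 in part 3, 92.5, 87.5 and 104 in part 4, 154, 78.1 and 102 in part 5, 172, 152 and 181 in part 6 and 220, 120 and 173 in part 7. Every array of parts 6 and 7 lay above every array of parts 1 to 4. The mean was 44.9 ± 6.19 in part 1 and 171 ± 50.1 in part 7, a 3.81-fold ratio of the means and 3.01-fold on the log2(signal + 16) scale (1.59 ± 0.22, limma adjusted p = 4.92e-05), and the slope was 0.30 ± 0.03 (adjusted p = 4.81e-08). The other Aldoc probe set had a mean signal of 2.56 and was below the filter.

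Aldoa, the main aldolase of muscle and of most embryonic tissue, ranged from 2718 to 3810 with a slope of -0.02 ± 0.01 (adjusted p = 0.326). None of its 4 other probe sets passed the slope test, and 1 of them was lower in part 7 than in part 1 (-0.40, adjusted p = 0.0158) and lower in the middle parts (-0.27, adjusted p = 0.00987). The phosphofructokinases Pfkl, Pfkm and Pfkp, which catalyse the committed step, had slopes of 0.03 ± 0.03, -0.02 ± 0.02 and -0.09 ± 0.04 (adjusted p = 0.578, 0.661 and 0.152). Pfkfb3 and Pfkfb4, which set the level of the phosphofructokinase activator fructose 2,6-bisphosphate, had slopes of 0.03 ± 0.04 and 0.04 ± 0.02 (adjusted p = 0.628 and 0.138). The triose phosphate isomerase Tpi1 had a slope of 0.01 ± 0.02 (adjusted p = 0.635).

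In lower glycolysis none of the 4 tested members passed the slope test. The phosphoglycerate kinase Pgk1 stayed between 4259 and 5286 over all 21 arrays, the mutase Pgam1 between 2063 and 2554, and the pyruvate kinase Pkm between 2181 and 3432, with slopes of -0.0047 ± 0.01, 0.01 ± 0.01 and 0.03 ± 0.02 (adjusted p = 0.776, 0.715 and 0.408). The other Pgk1 probe sets, with mean signals of 3381 and 4356, had slopes of -0.03 ± 0.02 and -0.01 ± 0.01. Neither passed in the limma fit over all probe sets (adjusted p = 0.207 and 0.607). The dimmer of them differed by -0.23 between part 7 and part 1 (limma adjusted p = 0.247), against -0.03 for the probe set used. Eno3, the muscle enolase, differed among parts by the F test (adjusted p = 0.0325). Its signals were 244, 297 and 385 in part 1, 147, 190 and 234 in part 4, 171, 142 and 205 in part 5 and 299, 246 and 303 in part 7. The 6 arrays of parts 4 and 5 lay below the 6 arrays of parts 1 and 7, and the F call was lost without any of 9 single arrays (adjusted p up to 0.0735). Probe sets of Aldoa, Tpi1, Pgk1, Ndrg1, Adm and Slc2a3 carry a suffix by which Affymetrix marks probes that can match other transcripts, so signal of related genes cannot be separated in these 6.

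At the step from pyruvate to lactate and out of the cell, 1 of 6 tested members rose and 1 fell. Ldha encodes the lactate dehydrogenase subunit that favours lactate formation. Its signals were 4620, 4736 and 5533 in part 1 and 4161, 3845 and 4615 in part 7. These groups nearly touched but did not overlap. The slope was -0.04 ± 0.01 (limma adjusted p = 0.0279) and was lost without part 1 replicate 3, part 6 replicate 2 or part 7 replicate 2 (adjusted p up to 0.0927), and the difference between the ends, -0.24 ± 0.10, missed the threshold (adjusted p = 0.139, and 0.00300 with the replicate number). Ldhb, whose subunit favours the reverse reaction, had a slope of -0.10 ± 0.05 (adjusted p = 0.162, and 0.000817 with the replicate number): replicate 3 lay between 255 and 502, and replicates 1 and 2 between 526 and 849.

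Slc16a3, which encodes MCT4, the transporter typical of lactate-exporting cells, gave 70.0, 65.5 and 63.3 in part 1 and 141, 99.5 and 120 in part 7. The 2 ends did not overlap, while part 6 spread from 56.7 to 162. The slope was 0.10 ± 0.03 (adjusted p = 0.0388) and was lost without part 6 replicate 1, part 1 replicate 2 or 3, or any single array of part 7 (adjusted p up to 0.109). Slc16a1, which encodes MCT1, the widespread lactate and pyruvate carrier, gave 824, 772 and 956 in part 1 and 111 to 605 in the 18 other arrays. Part 1 stood above every other array, and replicate 3 was the highest array in each part. The difference between part 7 and part 1 was -1.47 ± 0.54 (adjusted p = 0.0776, and 0.000578 with the replicate number). The pyruvate dehydrogenase kinases Pdk1 and Pdk3, which keep pyruvate out of the mitochondrial cycle, had slopes of -0.01 ± 0.03 and -0.01 ± 0.02 (adjusted p = 0.869 and 0.588).

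Among the 9 hypoxia response members, 2 rose and 2 fell, and the 2 oxygen-sensing prolyl hydroxylases moved in opposite directions. Egln3, which encodes PHD3, gave 292, 298 and 258 in part 1, 308, 335 and 252 in part 2, 168, 242 and 158 in part 3, 98.4, 101 and 95.02 in part 4, 18.0, 67.8 and 59.2 in part 5, 77.6, 78.5 and 50.3 in part 6 and 90.4, 53.3 and 77.8 in part 7. All arrays of parts 1 and 2 lay above all arrays of parts 3 to 7. Signal was 3.37-fold lower in part 7 than in part 1 (-1.75 ± 0.26, adjusted p = 0.000105), and the slope was -0.39 ± 0.05 (adjusted p = 8.52e-06). A second, dim Egln3 probe set, with a mean signal of 11.4, had a slope of -0.08 ± 0.04 (adjusted p = 0.137).

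Egln1, which encodes PHD2, the main HIF hydroxylase, gave 428, 640 and 603 in part 1, 764, 662 and 654 in part 6 and 782, 606 and 710 in part 7. Parts 1 and 7 overlapped. The slope was 0.06 ± 0.02 (adjusted p = 0.0117), and it was not past the threshold without replicate 1 (adjusted p = 0.399). A second Egln1 probe set, with a mean signal of 98.6, had a slope of 0.05 ± 0.03 (adjusted p = 0.225). Hif1a, which encodes the oxygen-regulated HIF subunit, gave 2132, 2068 and 2034 in part 1 and 1202, 1537 and 1671 in part 7. The ends did not overlap. Hif1a was 1.42-fold lower in part 7 (-0.51 ± 0.14, adjusted p = 0.0208), with a slope of -0.06 ± 0.02 (adjusted p = 0.0261) that was lost without part 7 replicate 1 or any single array of part 1 (adjusted p up to 0.0867). The difference between the ends was not past the threshold without part 1 replicate 1 or 2 or part 7 replicate 1 (adjusted p up to 0.136). The 3 other Hif1a probe sets had slopes of -0.05, -0.0013 and -0.08, none past the threshold.

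Ndrg1, a gene induced by hypoxia and cell stress, was near the filter in parts 2 to 5, with signals from 6.04 to 19.9, and passed it mostly through parts 1, 6 and 7. It gave 16.1, 32.4 and 20.3 in part 1, 43.7, 29.6 and 39.8 in part 6 and 145, 37.3 and 150 in part 7. All arrays of part 7 lay above all arrays of parts 1 to 5, and replicate 2 of part 7 lay far below the other 2. The part means were 22.9 ± 8.47 in part 1 and 111 ± 63.6 in part 7, a 4.83-fold ratio. On the log2(signal + 16) scale, which shrinks the change of so dim a gene, Ndrg1 was 2.93-fold higher in part 7 (1.55 ± 0.31, adjusted p = 0.00179), with a slope of 0.23 ± 0.07 (adjusted p = 0.0180). The slope was not past the threshold without part 7 replicate 1 or part 7 replicate 3 (adjusted p up to 0.0666). Both other Ndrg1 probe sets past the filter had slopes that missed the threshold, 0.17 ± 0.07 (adjusted p = 0.132) and 0.06 ± 0.04 (adjusted p = 0.411). The first of these was higher in part 7 than in part 1 (1.16, adjusted p = 0.0302), and the difference of the second was 0.42 (adjusted p = 0.515). Every Ndrg1 probe set past the filter carries the suffix for probes that can match other transcripts. The Ndrg1 probe sets without it had mean signals of 3.68 and 2.22 and were below the filter.

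Ddit4, which encodes REDD1, an inhibitor of the growth regulator mTORC1, followed no line but peaked in the middle. Its signals were 182, 312 and 741 in part 1, 494, 529 and 561 in part 2, 1407, 840 and 1318 in part 3, 1452, 1659 and 1938 in part 4, 497, 1007 and 669 in part 5, 579, 391.6 and 318 in part 6 and 432, 507 and 213 in part 7. All arrays of parts 3 and 4 lay above all arrays of parts 1, 2, 6 and 7, and part 5 overlapped with both sets. The slope was -0.04 ± 0.09 (adjusted p = 0.795). The mean of parts 3, 4 and 5 was 2.64-fold above the mean of parts 1, 2, 6 and 7 (1.40 ± 0.21 on the log2 scale, adjusted p = 0.000432).

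The other hypoxia targets gave no slope past the threshold. Bnip3, which marks mitochondria for removal, had its lowest part mean in part 2, 495 ± 263, and its highest in part 6, 1010 ± 55.5, with a slope of 0.12 ± 0.05 (adjusted p = 0.0742, and 0.0438 with the replicate number). Vegfa, the growth factor for blood vessels, ranged from 27.7 to 78.7 with a slope of 0.04 ± 0.03 (adjusted p = 0.421). Adm, a vasodilator peptide, at 2.41 to 28.5, and Car9, a carbonic anhydrase at the cell surface, at 1.696 to 21.1, were near the filter in all parts, with slopes of 0.02 ± 0.03 and -0.05 ± 0.03 (adjusted p = 0.723 and 0.205).

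**Figure D3:**
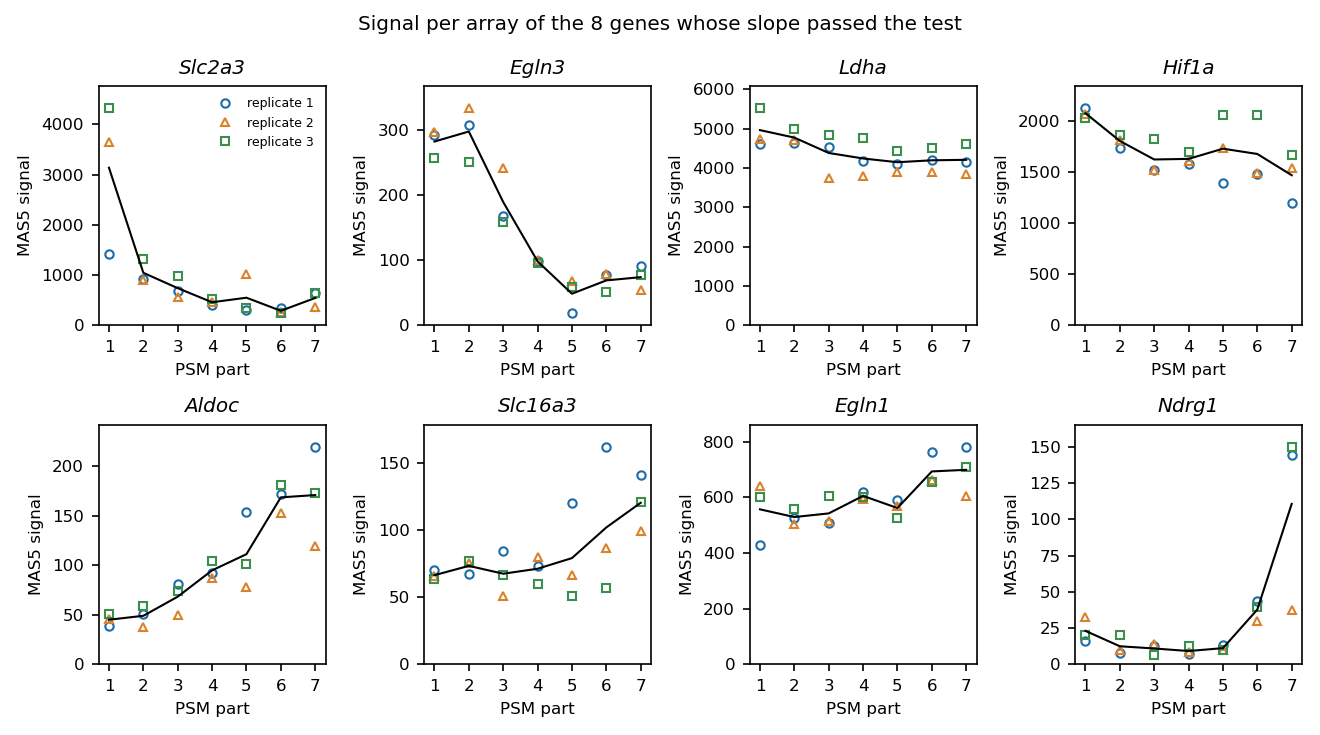
MAS5 signal of each array against PSM part for the 8 members whose slope passed the test. Each replicate number has its own symbol, and the line joins the mean of every part. Slc2a3 drops from 1425 to 4331 in part 1 to 242 to 344 in part 6, and Aldoc climbs from 38.4 to 50.7 in part 1 to 120 to 220 in part 7.

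**Figure D4:**
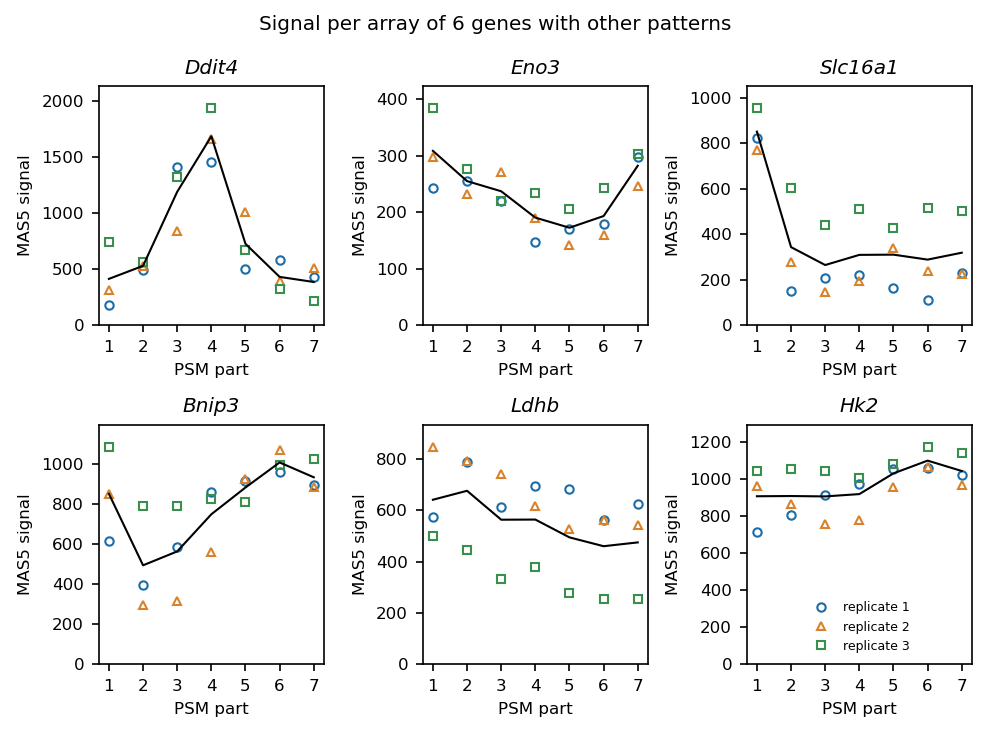
MAS5 signal of each array against PSM part for 6 members with other patterns. Each replicate number has its own symbol, and the line joins the mean of every part. Ddit4 peaks in part 4 at 1452 to 1938, Slc16a1 is high in part 1 at 772 to 956, and replicate 3 of Ldhb lies below the other 2 numbers in every part.

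In the tests that assume no line, 6 members differed among the parts by the F test (Slc2a3, Aldoc, Egln3, Ndrg1, Ddit4 and Eno3), 19.4% of the members tested against 13.4% of all genes. Between the ends, 2 members were higher in part 7 (Aldoc and Ndrg1) and 3 were lower (Slc2a3, Egln3 and Hif1a), 16.1% against 13.4% of all genes (6.10% higher and 7.30% lower). The arrays of the 2 ends did not overlap for 10 members: these 5 and Hk1, Ldha, Slc16a1, Slc16a3 and Pdk1. That is 32.3% of the members tested, with 3 higher and 7 lower in part 7, against 29.1% of all genes (14.4% higher and 14.7% lower). In the contrast of the middle parts with the outer parts, Ddit4 was higher and Ndrg1 (-0.95 ± 0.17, adjusted p = 0.00250) and Egln3 (-0.54 ± 0.14, adjusted p = 0.0423) were lower, 9.68% of the members against 2.92% of all genes (1.32% higher and 1.60% lower). The call for Egln3 was lost without any of 14 single arrays (adjusted p up to 0.0920). These 2 lower calls do not show a low confined to the middle parts. Egln3 was at least 95.02 on every array of parts 3 and 4 and at most 90.4 in parts 6 and 7. Its high outer signals were those of parts 1 and 2. Ndrg1 had part means of 9.02 to 12.3 in parts 2 to 5, the highest of these in outer part 2. Its means were 22.9, 37.7 and 111 in parts 1, 6 and 7. The middle difference was below 0 in 26 of 31 members (83.9%), against 57.3% of all genes, and its median was -0.13 against -0.02.

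A term for the replicate number in the fit raised the calls. By the slope, 6 members rose and 6 fell, against 25.1% of all genes called (11.3% rising and 13.8% falling). Hk2 and Bnip3 were added to the risers, and Ldhb (slope -0.10) and Slc16a1 (slope -0.17, adjusted p = 0.0423) to the fallers. By the F test 13 members passed, against 25.0% of all genes, with Aldoa, Bnip3, Hif1a, Ldha, Ldhb, Slc16a1 and Tpi1 added. Between the ends, 3 were higher and 7 lower, against 23.6% of all genes (11.3% higher and 12.3% lower), with Slc16a3 added to the higher and Hk1, Ldha, Ldhb and Slc16a1 to the lower. In the middle contrast, Aldoa (-0.15, adjusted p = 0.0112) and Eno3 (-0.35 ± 0.10 without the term, adjusted p = 0.0137 with it) joined the lower members, giving 1 higher and 4 lower, against 5.95% of all genes (2.59% higher and 3.35% lower).

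Several steps have more than 1 form of the enzyme or transporter, and the 11 pairs of forms were compared by the difference of their slopes, with a two-sided permutation test of the part numbers adjusted over the 11 pairs. This comparison was added after the data had been seen, and 6 pairs differed. Egln1 minus Egln3 was 0.45 (95% interval 0.33 to 0.57, adjusted permutation p = 5.5e-05), Slc2a1 minus Slc2a3 was 0.42 (0.24 to 0.61, adjusted permutation p = 0.000403) and Aldoa minus Aldoc was -0.32 (-0.37 to -0.27, adjusted permutation p = 5.5e-05). For the first and the third of these the unadjusted p of 1e-05 is the smallest that the permutations can give. In each of these 3 pairs the form with the near-flat or rising slope and the form with the steep slope carry out the same reaction or transport. Slc16a1 minus Slc16a3 was -0.27 (-0.49 to -0.05, adjusted permutation p = 0.0323), Hk1 minus Hk2 was -0.10 (-0.17 to -0.04, adjusted permutation p = 0.0116) and Pfkl minus Pfkp was 0.11 (0.03 to 0.19, adjusted permutation p = 0.0261). The interval spanned 0 for Pfkl minus Pfkm (-0.04 to 0.12), Pfkm minus Pfkp (-0.04 to 0.17), Pfkfb3 minus Pfkfb4 (-0.10 to 0.09), Ldha minus Ldhb (-0.07 to 0.19) and Pdk1 minus Pdk3 (-0.06 to 0.07), with adjusted permutation p from 0.286 to 0.911. Within replicate numbers Ldha and Ldhb differed (adjusted permutation p = 0.0203).

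**Figure D5:**
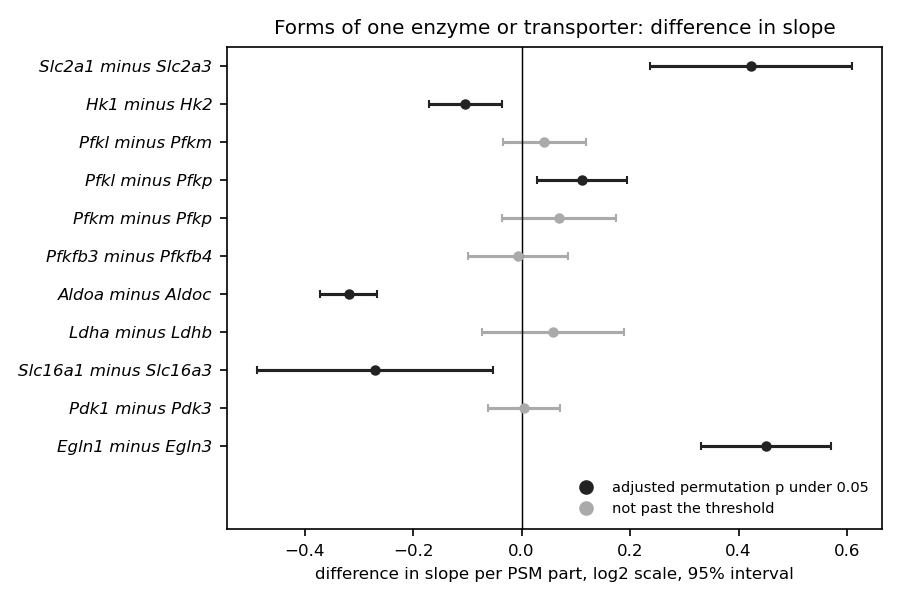
The difference in slope per PSM part between 2 forms of an enzyme or transporter, on the log2 scale with its 95% interval, for 11 pairs. The intervals of 6 pairs lie off 0, with Egln1 minus Egln3 at 0.45 and Aldoa minus Aldoc at -0.32 among them.

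The wider pathway was read from a list of 102 other genes, of which 78 were tested: 11 rose, 11 fell and 56 did not pass (28.2% called, against 19.2% of all genes). Of all genes tested, 8.09% rose and 11.1% fell. Among 22 other genes of glycolysis and glucose use, none rose and 6 fell (27.3% called). Among 33 other hypoxia targets, 9 rose and 3 fell (36.4% called), and among 9 hypoxia factors and oxygen sensors, 2 rose and 1 fell (33.3% called). None of the 6 pentose phosphate genes passed, and 1 of 8 genes of pyruvate entry into mitochondria fell. The steepest falls were in Bpgm (-0.21 ± 0.04, adjusted p = 0.000186), which makes 2,3-bisphosphoglycerate and is abundant in red blood cells, Pgm2 (-0.20 ± 0.03, adjusted p = 7.28e-05), a phosphoglucomutase, Mpc1 (-0.19 ± 0.02, adjusted p = 5.05e-06), a subunit of the mitochondrial pyruvate carrier, and Ppp1r3c (-0.17 ± 0.04, adjusted p = 0.00567), which targets a phosphatase to glycogen. Bpgm is expressed in blood, whose markers fell too, and their part in its fall was not tested. The steepest rises were in Epas1 (0.27 ± 0.08, adjusted p = 0.0275), which encodes HIF-2 alpha, Arnt2 (0.15 ± 0.03, adjusted p = 0.000229), a partner of HIF subunits, Cited2 (0.14 ± 0.03, adjusted p = 0.00107), a HIF antagonist, and Higd1a (0.13 ± 0.02, adjusted p = 7.15e-05), a mitochondrial protein induced by hypoxia. Epas1 did not pass the F test (adjusted p = 0.208) or the test of part 7 against part 1 (limma adjusted p = 0.0776). Cited2 had its highest part mean in part 5, 2032, against 1462 in part 7. It was also higher in the middle parts than in the outer parts (0.38, limma adjusted p = 0.0025). Gapdh was present here only as control probe sets and was not tested, and Eno1 had no probe set with a single symbol and was not analysed here.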

How the data were processed

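Total RNA of 21 PSM pieces was amplified in 2 cycles and hybridised to Affymetrix arrays, per the labels' protocols. The deposited values are MAS5 signal intensity on a linear scale, per the submitters' processing notes. The version of that tool is not given in the sources used here, nor is the target to which it scaled. Since MAS5 scaling equalises the array means, it hides a shift common to most genes, and low signals are noisy. Depth has no meaning for arrays, and their number limits the precision.

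Of 45101 probe sets, 34945 had a single gene symbol in the platform annotation. Each gene was read from its brightest probe set. Values were tested as log2(signal + 16), which understates fold changes of dim genes, with limma 3.58.1 in R 4.3.3 and Benjamini-Hochberg adjustment over 12143 genes. The tests were the slope on part number, the F test over parts, part 7 against part 1, and parts 3, 4 and 5 against the rest. Scripts were tested on simulated data. The members, gene lists and tests were chosen with earlier results of these data known. Named genes are all members, the 4 steepest called genes each way of the wider list, and defining cell type markers. Alternatives were the replicate number as a block, the pseudocount, filter, scaling, probe set choice and left-out arrays.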

Additional observations from a re-analysis of the deposited data

How the results depend on the processing

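The slope, F and end-to-end calls of Slc2a3, Egln3 and Aldoc and the middle call of Ddit4 were kept under each alternative run, while other calls depended on the setting. Over single genes and pairs, 662 values kept direction and side of the threshold, 29 passed it newly, 37 no longer passed it and 9 turned in sign. With the replicate block, members passing the F test went from 6 to 13, those lower in part 7 from 3 to 7, and those lower in the middle from 2 to 4. Deviations of same-numbered arrays of different parts correlated in 55 of 63 pairs by over 0.1 (median 0.31, lowest 0.037), and 18 of 21 arrays correlated best with their own number. Pairing was taken as shown only if all pairs were over 0.1, so this is a hint from the data that the numbers may pair the arrays, not a fact of the design. Median centring left 2 falling members of 4, without Hif1a and Ldha, and moved the share of rising among all called slopes from 42.2% to 52.6%. A filter at the 75th percentile left 1 member higher in part 7 and 1 lower in the middle. A pseudocount of 1, no filter, quantile normalization and median centring each left 1 lower in the middle. Without a replicate number, counts ranged from 1 to 5 for rising, 2 to 4 for falling, 4 to 9 for F, 1 to 2 for higher and 2 to 4 for lower in part 7, 1 for higher and 0 to 1 for lower in the middle. Without replicate 1, Aldoc was the 1 member left rising, and the F calls of Ndrg1 and Eno3 were lost; without replicate 2 those of Ddit4 (adjusted p = 0.0616) and Eno3 were lost. Without a single array, an alternative added after the data had been seen, they ranged from 2 to 5 for rising and falling, 5 to 7 for F, 2 to 3 for higher and 2 to 4 for lower in part 7, 1 for higher and 1 to 3 for lower in the middle. Leaving out a replicate number turned the sign of these uncalled values, given as lowest to highest: the slope of Slc2a1 (-0.0054 to 0.0401), Pfkm (-0.0288 to 0.0026), Pgk1 (-0.0159 to 0.0063, and 0.0036 with median centring), Pgam1 (-0.0034 to 0.0176), Pdk1 (-0.0367 to 0.0276) and Ddit4 (-0.112 to 0.0704), and the difference in slope, Pfkfb3 minus Pfkfb4 (-0.0227 to 0.0243) and difference in slope, Pdk1 minus Pdk3 (-0.0306 to 0.0378). The cause was not tested. Signal over background limits Ndrg1, Adm and Car9, which lie near the filter.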
